A study of Mus musculus with 16 samples.

Results

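The genes described are 10 sensors of microbial products and their partners, Tlr2, Tlr3, Tlr4, Tlr5, Myd88, Cd14, Ly96, Tollip, Nod1 and Nod2, measured in the cecal epithelium of gnotobiotic mice. All probe sets of an Affymetrix mouse genome GeneChip annotated to 1 of these genes were taken, whatever their signal. They came to 14 of the 45101 probe sets on the GeneChip and covered 9 of the 10 genes. The annotation used here paired no probe set with Nod2, which is not analysed here.

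Toll-like receptors are membrane proteins that bind conserved microbial molecules, and they pass the signal to NF-kappaB and to interferon regulatory factors through adaptors such as MyD88. Nod1 and Nod2 recognize fragments of peptidoglycan in the cytosol and signal through the kinase Ripk2. In the intestine both families are studied for how an epithelium next to dense microbial populations detects them without constant inflammation.

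Adult NMRI mice were raised germ-free on a standard polysaccharide-rich chow. They stayed germ-free (GF) or were colonized for 10 days with B. thetaiotaomicron, spelled B. thetatiotaomicron in part of the labels (Bt), with B. longum (Bl), or with both species (Bt/Bl). The methods give the mice as males. RNA of laser-captured cecal epithelium from 4 mice was pooled in each state, and each pool was amplified and hybridized in duplicate. GF was on GeneChips 9128 and 9129, Bt on 9130 and 9443, Bl on 9134 and 9135, and Bt/Bl on 9132 and 9133. The duplicates share 1 pool (n = 2 amplifications), so their spread is technical, each test compares pools rather than mice, and the number of GeneChips limits the precision. B. thetaiotaomicron is a Gram-negative gut symbiont whose outer membrane carries lipopolysaccharide. B. longum is Gram-positive and carries none.

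The GF GeneChips stood apart from the 6 others in ways that touch every comparison with GF. The summed signal of 3 ileal genes (Fabp6, Apoa1 and Slc10a2) was between 102129 and 129029 in GF and between 3797 and 5876 elsewhere. B and plasma cell markers summed to between 108797 and 125432 in GF and to between 14444 and 57733 elsewhere. Xist, transcribed from the inactive X chromosome of females, gave 17157 and 22762 in GF against 3753 to 11176 elsewhere, while the Y-linked Eif2s3y gave 71 and 614 against 3201 to 5657, which goes against the stated sex for the libraries labelled GF. The Xist signals of the libraries labelled Bt, Bl and Bt/Bl were also far above the median of all signals, which males would not be thought to give, so the stated sex is in doubt for these too. The 3′ to 5′ signal ratio of Gapdh, which rises as RNA is shortened, was lower on the GF GeneChips (5.66 and 7.26) than on the 6 others (8.93 to 17.6), whereas that of beta-actin was higher (36.9 and 38.8 against 21.4 to 36.3). The part of these differences in the results was not tested. All 10 epithelial markers, among them Epcam, Cdh1 and Vil1, were above the median of all signals on all 8 GeneChips. Of 12 markers of macrophages and other myeloid cells, which express many of these sensors, 2 (Csf1r and Adgre1) were above that median on all 8 GeneChips and Fcer1g on none. Their summed signal was between 16544 and 18973 in GF, 20896 and 23371 in Bt, 10537 and 18260 in Bl, and 16563 and 16782 for Bt/Bl.

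**Figure D1:**
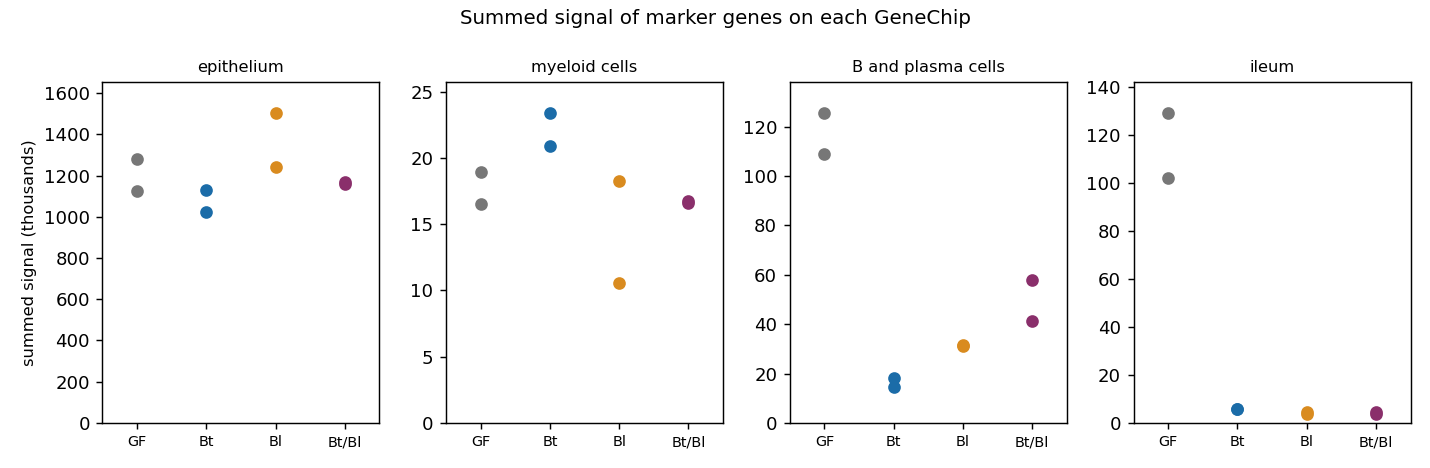
Summed signal, on a linear axis from 0 in units of 1000, of 4 lists of marker genes on each GeneChip (points, 2 in each colonization state). The ileal and the B and plasma cell sums were highest on both GF GeneChips and the myeloid sum was highest in Bt. The epithelial sum of GF overlapped with that of every colonized state.

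Signals are linear values with a trimmed mean near 1500 on every GeneChip, and each probe set was compared only with itself. The lowest 25% of all values, those under 144.7, were set to 144.7 before taking logs. Only probe sets with both duplicates of some state over 583.1, the median signal, were tested. This kept 24865 probe sets in all and 10 of the 14 described here, for 8 genes. A probe set that passed through 1 state only was bound to have a high value there, so no count over those that passed is given as support. The only Nod1 probe set, 1 of Tlr3 and 2 of Tlr4 did not pass. Log2 fold changes, standard errors, 95% intervals and Benjamini-Hochberg adjusted p values are from limma fitted on all tested probe sets and all 8 GeneChips.

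At an adjusted p under 0.05, 0 of the 10 tested probe sets passed in any of 7 comparisons or over the 4 states together. The background was low as well. Of all 24865 probe sets, 0.169% passed in Bt against GF, 0.137% in Bl against GF and 0.197% in Bt/Bl against GF. The share was 0.0483% in Bt/Bl against Bt, 0.0563% in Bt/Bl against Bl, 0.0442% in Bt against Bl, 0.113% for the non-additive term (Bt/Bl minus Bt minus Bl plus GF, on the log2 scale), and 0.290% for the F test over the 4 states. At an unadjusted p under 0.05 the probe sets described here numbered 2 of 10 in Bt against GF (Tlr2 and Myd88; background 9.49%), 0 in Bl against GF (11.7%) and 1 in Bt/Bl against GF (Cd14; 7.39%). They numbered 1 in Bt/Bl against Bt (Cd14; 10.5%), 2 in Bt/Bl against Bl (Cd14 and Tlr3; 11.8%), 2 in Bt against Bl (Tlr2 and Tlr3; 11.9%) and 1 for the non-additive term (Tlr2; 12.0%). What follows are therefore values and their intervals. A bulk signal cannot tell fewer cells of a type apart from less RNA in each cell.

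Promoter windows from RefSeq (build GRCm38.p6), from 250 bases before to 50 bases after the annotated start, were found for 7 of the 10 genes, in 8 windows of 300 bases because Nod1 had a pair of them. Those of Tlr2, Tlr5 and Myd88 are printed because these genes had the largest differences between Bt and GF among the brightly measured members, at chr3:83841559-83841858 (minus strand), chr1:182954538-182954837 (plus strand) and chr9:119339969-119340268 (minus strand). Capitals mark the GC box letters GGGCGG, read on both strands and written 5′ to 3′ along the gene.
Tlr2: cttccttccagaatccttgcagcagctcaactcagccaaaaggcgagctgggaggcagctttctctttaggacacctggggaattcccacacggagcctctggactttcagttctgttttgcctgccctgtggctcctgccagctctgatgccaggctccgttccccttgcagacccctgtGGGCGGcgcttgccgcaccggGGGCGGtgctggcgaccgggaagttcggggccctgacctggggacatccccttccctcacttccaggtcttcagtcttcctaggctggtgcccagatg
Tlr5: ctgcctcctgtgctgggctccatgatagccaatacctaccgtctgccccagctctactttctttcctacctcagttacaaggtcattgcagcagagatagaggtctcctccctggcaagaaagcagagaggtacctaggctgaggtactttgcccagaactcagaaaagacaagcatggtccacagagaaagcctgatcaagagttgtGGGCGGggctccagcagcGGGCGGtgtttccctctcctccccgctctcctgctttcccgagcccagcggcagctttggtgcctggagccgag
Myd88: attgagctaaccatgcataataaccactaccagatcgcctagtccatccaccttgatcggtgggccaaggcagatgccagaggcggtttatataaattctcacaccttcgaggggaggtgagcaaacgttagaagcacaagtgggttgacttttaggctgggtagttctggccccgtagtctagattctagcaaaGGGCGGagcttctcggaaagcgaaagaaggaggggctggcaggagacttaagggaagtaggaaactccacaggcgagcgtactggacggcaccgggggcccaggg

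The GC box letters occurred in 7 of the 8 windows, covering all 7 genes, and in 35.7% of all 32851 promoter windows of this length. The letters GGG followed after any 5 bases by CC, of the type bound by NF-kappaB, occurred in 6 of the 8 windows and in 50.8% of all windows. Tlr2 held 5 such matches, none of which overlapped a GC box, while the single match of Tlr5 did overlap one, and Myd88 held none. Myd88 was the only 1 of the 7 with the interferon response type letters (GAAA, any 2 bases, GAAA; 3.44% of all windows) and the only 1 with TATAAA (13.6%), neither overlapping its GC box. All were searched on both strands, and a match describes letters, not a bound site.

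Tlr2, which with Tlr1 or Tlr6 recognizes bacterial lipopeptides at the cell surface, gave signals of 3835 and 4243 in GF, 8781 and 6716 in Bt, 4768 and 5207 in Bl, and 5301 and 4776 for Bt/Bl. Both Bt GeneChips lay above all 6 others, and both GF GeneChips lay below all 6 others. Bt against GF was 7749 ± 1460 (SD, n = 2) against 4039 ± 288, a log2 fold change of 0.93 with a 95% interval from 0.31 to 1.54 (standard error 0.29, adjusted p = 0.292). Against GF the log2 fold change was 0.30 in Bl (-0.31 to 0.92) and 0.32 for Bt/Bl (-0.29 to 0.93). The duplicates of Bl and Bt/Bl overlapped, with a log2 difference of 0.01 (-0.60 to 0.63, adjusted p = 0.994). The signal in Bt/Bl was below that in Bt on both GeneChips, by a log2 fold change of -0.61 (-1.22 to 0.00, adjusted p = 0.483). The non-additive term was -0.91 (-1.78 to -0.05, adjusted p = 0.389), where a negative value means that Bt/Bl was lower than the log2 differences of Bt and Bl from GF add up to.

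Tlr5, the receptor of bacterial flagellin, was dimmer and followed a like order. Its signals were 1018 and 1296 in GF, 1748 and 3013 in Bt, 1173 and 1376 in Bl, and 1373 and 1472 for Bt/Bl. Both Bt GeneChips were above all others, but they differed from each other 1.72-fold. Bt against GF was a log2 fold change of 1.0 (-0.24 to 2.24, standard error 0.58, adjusted p = 0.642). It was 0.15 in Bl (-1.10 to 1.39) and 0.31 for Bt/Bl (-0.93 to 1.55), and Bl overlapped with GF and with Bt/Bl. With every GeneChip scaled to the same median signal the difference in Bl turned to -0.20 for Tlr5, to -0.040 for Tlr2 and to -0.34 for Cd14.

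Tlr4, which recognizes lipopolysaccharide, was measured by 4 probe sets, of which the 2 tested had mean signals between 1 and 2 times the median of all signals and the 2 others lay below it. Its brighter probe set gave 165 and 973 in GF, 499 and 1051 in Bt, 1569 and 1082 in Bl, and 1231 and 998 for Bt/Bl. Both Bl and both Bt/Bl GeneChips lay above both GF GeneChips, whose own duplicates differed 5.91-fold. Against GF the log2 fold change was 0.86 in Bt (-1.23 to 2.95), 1.70 in Bl (-0.39 to 3.79, adjusted p = 0.529) and 1.47 for Bt/Bl (-0.62 to 3.56, adjusted p = 0.837). The Bl and Bt/Bl values rest on GeneChip 9128: without it the log2 fold change was 0.42 in Bl and 0.19 for Bt/Bl, and -0.43 in Bt. The second tested probe set gave 106 and 1007 in GF, 439 and 1472 in Bt, 262 and 1007 in Bl, and 828 and 1741 for Bt/Bl, and its duplicates differed up to 9.49-fold. It passed the filter through Bt/Bl alone, so it was bound to be high there. The 2 probe sets that were not tested lay between 32 and 770 and between 64 and 524, with no state apart from all 3 others.

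Tlr3, the endosomal receptor of double-stranded RNA, had a bright probe set with signals of 5209 and 7474 in GF, 6920 and 8104 in Bt, 4230 and 5615 in Bl, and 8766 and 7619 for Bt/Bl. Bl lay below Bt and below Bt/Bl on both GeneChips and overlapped with GF. The log2 fold change was 0.75 in Bt/Bl against Bl (0.13 to 1.36, adjusted p = 0.318) and 0.62 in Bt against Bl (0.01 to 1.23, adjusted p = 0.413). Neither comparison uses the GF GeneChips for its difference, and in a fit without them the adjusted p was 0.314 and 0.416. Against GF it was 0.26 in Bt, -0.36 in Bl and 0.39 for Bt/Bl, with intervals that all included 0. The other Tlr3 probe set was not tested, with signals between 113 and 485.

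Cd14, a surface protein that delivers lipopolysaccharide to Tlr4, had the brightest of these probe sets and the smallest F test p value of the 10. Its signals were 6307 and 8955 in GF, 11198 and 9716 in Bt, 6253 and 9096 in Bl, and 17703 and 16666 for Bt/Bl. Both Bt/Bl GeneChips were above all 6 others, both Bt GeneChips were next, and GF and Bl overlapped throughout. The mean in Bt/Bl was 17184 ± 733 (SD, n = 2) against 7631 ± 1873 in GF, a 2.29-fold ratio on the log2 scale (log2 fold change 1.19, standard error 0.27, interval 0.62 to 1.76, adjusted p = 0.124). Bt/Bl against Bl gave 1.19 (0.62 to 1.76, adjusted p = 0.116) and Bt/Bl against Bt 0.72 (0.15 to 1.29, adjusted p = 0.345). Bt against GF was 0.47 (-0.10 to 1.04, adjusted p = 0.622), and Bl against GF was 0.01 (-0.56 to 0.57, adjusted p = 0.998). The non-additive term was 0.71 (-0.09 to 1.52, adjusted p = 0.469). Ranked by the p value of the F test over the 4 states, Cd14 was number 242 of 24865 (adjusted p = 0.127).

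The myeloid marker sum was highest in Bt, where Cd14 had its second highest signal, and in Bt/Bl it overlapped with GF. Over the 10 myeloid markers tested, the median log2 fold change was 0.64 in Bt/Bl against Bl and 0.55 in Bt against Bl. It was -0.89 in Bt/Bl against Bt. Against GF it was 0.26 in Bt, -0.43 in Bl and -0.04 for Bt/Bl. Of single macrophage markers, Csf1r lay between 4015 and 12781, with both Bt GeneChips above all others, Adgre1 between 1333 and 2892, Cd68 between 33 and 661 and Itgam between 50 and 1613. Whether myeloid cells take part in the Cd14 signal was not tested.

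With GeneChip 9135 left out, Cd14 in Bt/Bl against Bl had a log2 fold change of 1.46 and an adjusted p of 0.038, in a fit that called 777 probe sets in place of 14. Bl was then the single GeneChip 9134, assumed to vary like the other states. GeneChip 9135 also had the highest Gapdh 3′ to 5′ ratio of the 8, and the part of this in the result was not tested. Over all the alternatives for that comparison the log2 fold change stayed between 0.92 and 1.48. Without both GF GeneChips it was 1.19 (adjusted p = 0.096).

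Ly96, which encodes MD-2, the lipopolysaccharide-binding partner of Tlr4, gave 1348 and 60 in GF, 1124 and 86 in Bt, 1091 and 1154 in Bl, and 1162 and 454 for Bt/Bl. Its duplicates differed 22.4-fold in GF, so the states overlapped and no order could be read. Against GF the log2 fold change was -0.13 in Bt (-2.74 to 2.48), 1.35 in Bl (-1.26 to 3.95) and 0.72 for Bt/Bl (-1.89 to 3.32), and each changed sign when 1 of the GeneChips was left out. Ly96 passed the filter through Bl alone, so it was bound to be high there.

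Myd88, the adaptor shared by most Toll-like receptors, gave 6295 and 4081 in GF, 3201 and 2514 in Bt, 3044 and 4881 in Bl, and 5172 and 4066 for Bt/Bl. Bt was below GF and below Bt/Bl on both GeneChips, whereas Bl overlapped with every other state. Bt against GF was a log2 fold change of -0.84 (-1.61 to -0.06, standard error 0.36, adjusted p = 0.476). Leaving out a GeneChip in turn moved it between -1.15 and -0.52, and the value nearest to 0 was without GF 9128. Against GF it was -0.39 in Bl (-1.17 to 0.38) and -0.14 for Bt/Bl (-0.92 to 0.63). Bt/Bl against Bt was 0.69 (-0.08 to 1.47, adjusted p = 0.543), and the non-additive term was 1.09 (-0.01 to 2.18, adjusted p = 0.417).

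Several cell type markers also differed between Bt and GF on both GeneChips, as Tlr2, Tlr5 and Myd88 did. Of the 10 epithelial markers, Epcam gave 20035 and 15170 in Bt against 26022 and 34403 in GF (log2 fold change -0.78, standard error 0.26, adjusted p = 0.321). Cdh1 gave 24617 and 24906 against 33557 and 49926 (-0.73, standard error 0.30, adjusted p = 0.434). Krt18 gave 27054 and 23885 against 16963 and 16887 (0.59, standard error 0.22, adjusted p = 0.382), and the 7 others had unadjusted p values over 0.05. The sum of 4 smooth muscle markers was between 7730 and 12899 in Bt and at most 6348 elsewhere, and that of the T cell markers between 5462 and 7808 in Bt, 2302 and 4107 in GF, 5471 and 5638 in Bl, and 2822 and 2841 for Bt/Bl. The myeloid sum was highest in Bt as given above. That of 7 fibroblast markers was between 31002 and 37365 in GF, 27164 and 28615 in Bt, 13677 and 19279 in Bl, and 19619 and 19994 for Bt/Bl. That of 4 endothelial markers was between 402 and 2424 in GF, 1179 and 1707 in Bt, 2571 and 3451 in Bl, and 1065 and 1802 for Bt/Bl. The part of these markers in the differences of Tlr2, Tlr5 and Myd88 was not tested.

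Tollip, an inhibitor of Toll-like and interleukin 1 receptor signaling, had a pair of tested probe sets whose log2 fold changes against GF were of opposite sign in Bl and in Bt/Bl. The brighter one had the narrowest span of state means among the brightest probe sets of the 8 tested genes, 0.18 on the log2 scale. It gave 3421 and 3686 in GF, 3604 and 3840 in Bt, 3527 and 3076 in Bl, and 3539 and 3154 for Bt/Bl, so that GF overlapped with every colonized state. The log2 fold change against GF was 0.07 in Bt (-0.65 to 0.78), -0.11 in Bl (-0.82 to 0.61) and -0.09 for Bt/Bl (-0.80 to 0.63). These intervals reach up to 1.72-fold higher, in Bt, and 1.77-fold lower, in Bl. The second Tollip probe set was dim, with signals of 151 and 577 in GF, 729 and 287 in Bt, 714 and 1208 in Bl, and 319 and 342 for Bt/Bl, and with duplicates up to 3.83-fold apart. This second probe set passed the filter through Bl alone, so it was bound to be high there. In it both Bl GeneChips lay above both GF GeneChips, with a log2 fold change of 1.65 (-0.40 to 3.70, adjusted p = 0.533). The log2 fold change against GF was 0.63 in Bt (-1.42 to 2.68) and 0.16 for Bt/Bl (-1.89 to 2.21).

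Nod1, the cytosolic receptor of peptidoglycan fragments common in Gram-negative bacteria, gave 58 and 1137 in GF, 166 and 85 in Bt, 422 and 88 in Bl, and 486 and 259 for Bt/Bl. Of the 8 values 7 were under the median of all signals, and the 1 above it came from a pool whose duplicate was under the floor. Bt/Bl lay above Bt, and every other pair of states overlapped.

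**Figure D2:**
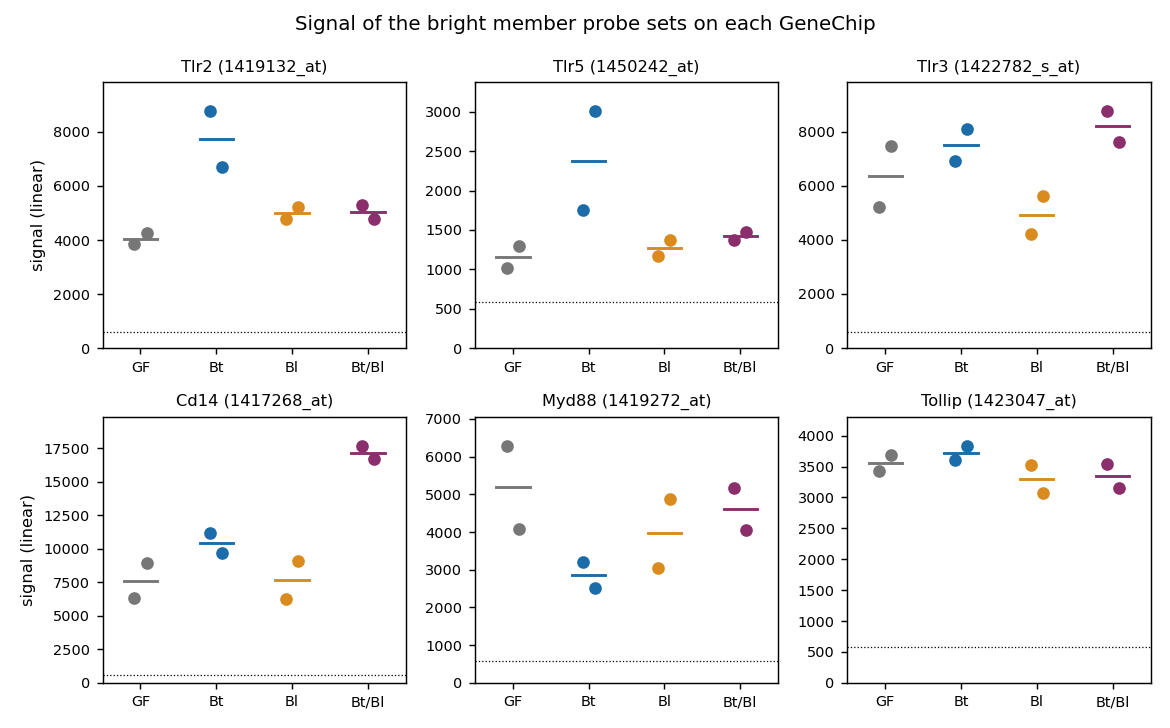
Signal on a linear axis from 0 for the 6 brighter probe sets (points, 2 GeneChips in each state; bars, their mean), with the median of all signals dotted. Tlr2 and Tlr5 were highest on both Bt GeneChips, Cd14 on both Bt/Bl GeneChips, Myd88 was lower in Bt than in GF, and Tollip stayed between 3076 and 3840.

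**Figure D3:**
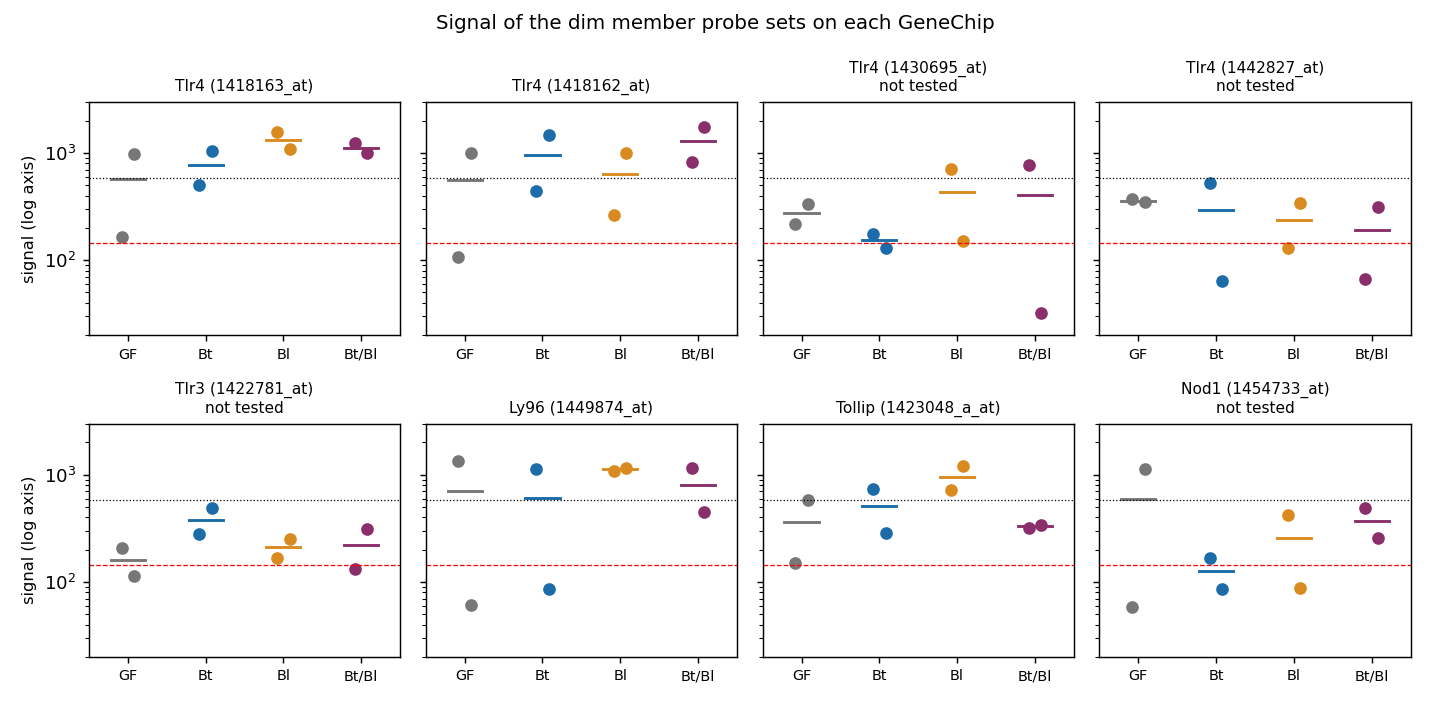
Signal on a log axis for the 8 dimmer probe sets (points, 2 GeneChips in each state; bars, their mean), with the median of all signals dotted and the floor of 144.7 dashed. In Ly96 and in the 2 tested Tlr4 probe sets, duplicates of 1 pool lay on opposite sides of the median in 2 or 3 of the 4 states. The same held for an untested Tlr4 probe set in Bl and in Bt/Bl, for the second Tollip probe set in Bt and for Nod1 in GF.

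The order of the states differed between members. The duplicates of the states compared did not overlap for 4 of the 10 in Bt against GF (background 40.0%), 3 in Bl against GF (41.3%) and 5 in Bt/Bl against GF (41.0%). They did not overlap for 5 in Bt/Bl against Bt (43.0%), 3 in Bt/Bl against Bl (42.7%) and 6 in Bt against Bl (38.0%). The second Tollip probe set, which passed the filter through Bl alone, is counted in Bl against GF and in Bt/Bl against Bl. With 1 probe set a gene, the median log2 fold change of the 8 genes was 0.37 in Bt, 0.08 in Bl and 0.35 for Bt/Bl against GF, beside 0.01, 0.00 and 0.00 for all 12937 genes tested. Ly96, which passed the filter through Bl alone, is among the 8 genes.

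**Figure D4:**
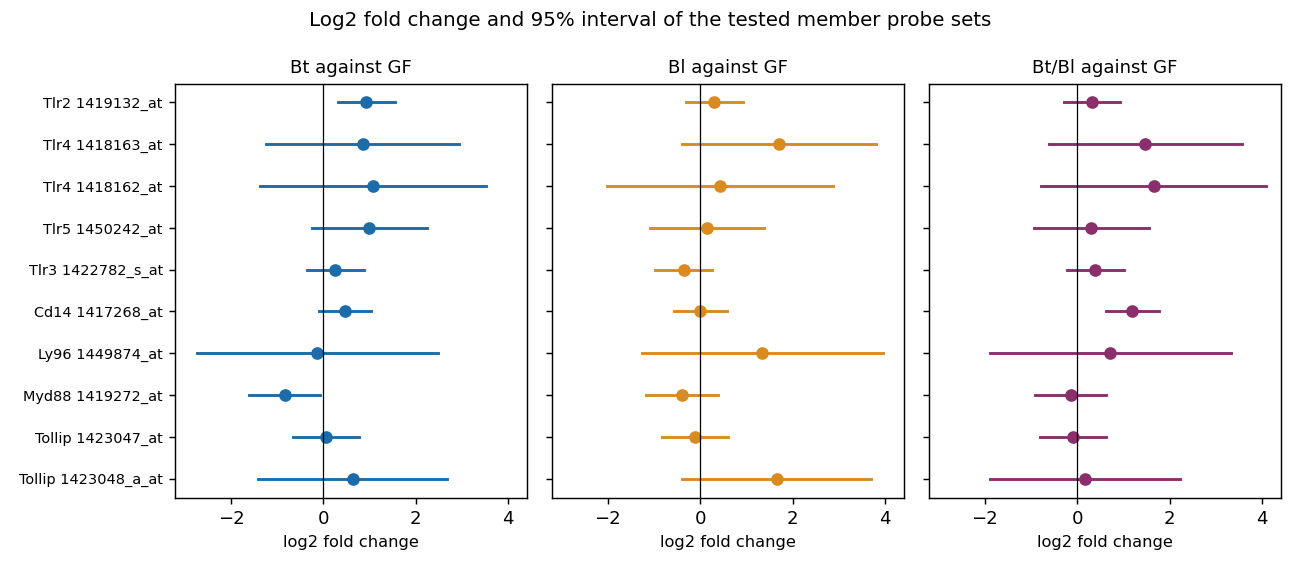
Log2 fold change against GF (points) with 95% intervals (lines) from limma for the 10 tested probe sets in Bt, Bl and Bt/Bl. The intervals of Tlr2 and Myd88 in Bt and of Cd14 in Bt/Bl leave out 0, and the adjusted p values of these 3 were 0.292, 0.476 and 0.124. Ly96 and the second Tollip probe set passed the filter through Bl alone, and the second Tlr4 probe set through Bt/Bl alone.

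The spread between duplicates differed among the 14 probe sets. The largest ratio between duplicates was at most 1.72 for the 6 probe sets whose mean signal was over 2 times the median of all values (Tlr2, Tlr5, Tlr3, Cd14, Myd88 and Tollip). It was between 5.91 and 22.4 for the 3 probe sets between 1 and 2 times the median (2 of Tlr4 and 1 of Ly96). For the 5 probe sets with a mean under the median it ranged from 2.39 (Tlr3) and 3.83 (Tollip) to 23.8 (Tlr4), so the dimmest did not have the widest ratios throughout. The medians of this ratio over all probe sets were 8.73 under the median, 6.89 from 1 to 2 times, 2.46 from 2 to 4 times and 1.62 above 4 times.

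**Figure D5:**
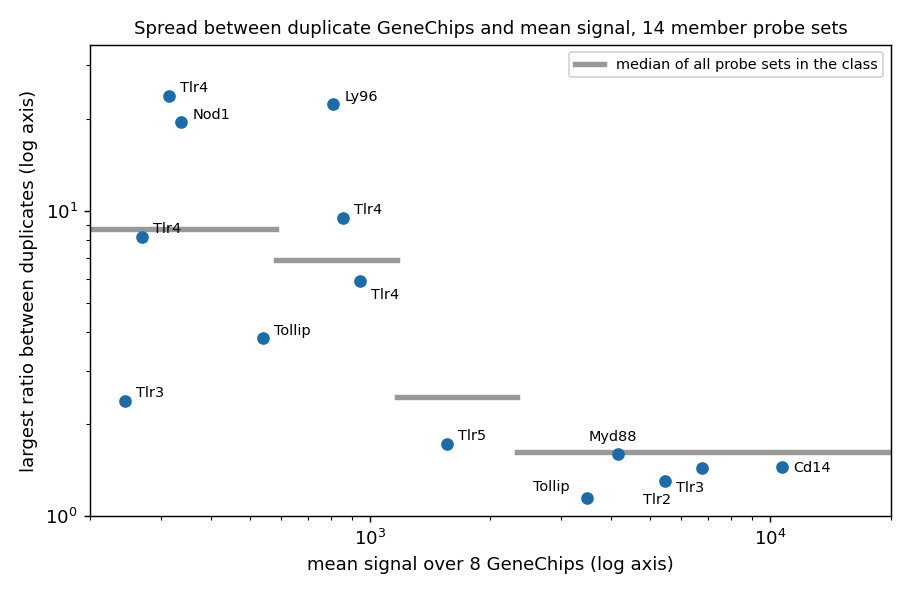
Largest ratio between duplicate GeneChips in any state against the mean signal over 8 GeneChips, both on log axes, for the 14 probe sets (points, named by gene). Grey bars are the medians over all probe sets of a brightness class, falling from 8.73 to 1.62, and 6 members to the right of the figure have ratios of at most 1.72.

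The genes whose pattern over the 8 GeneChips was most like a member's are given for the 4 members whose state means spanned the widest range of the 8 searched, among 12936 other tested genes and by Pearson's r of the log2 signal. For Cd14 they were Gmds and Tgoln1 (r = 0.983 each) and Slc35g1 (0.958), for Tlr5 Gpr89 (0.953), Fabp1 (0.928) and Slc3a1 (0.921). For Tlr4 they were Dtd2 (0.978), Entpd7 (0.962) and 9430083A17Rik (0.955), and for Ly96 Dcaf12l1 (0.978), Iffo1 (0.964) and Capn6 (0.964). With 8 points and so many genes such values are a description of these GeneChips, and an r above 0.9 was reached by 35 genes with Cd14, 34 with Ly96, 33 with Tlr4 and 8 with Tlr5.

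Another 88 genes of the pathways around these sensors were followed, of which 75 had a probe set and 59 passed the filter. At an adjusted p under 0.05, 0 of the 59 passed in any comparison. At an unadjusted p under 0.05 they numbered 5 in Bt, 5 in Bl and 9 for Bt/Bl against GF (8.47%, 8.47% and 15.25%), beside 8.97%, 11.05% and 7.51% of all genes. The median log2 fold change of the 59 was -0.08, -0.07 and 0.07 in that order.

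Among other Toll-like receptors 2 of 8 were tested. Tlr1, which pairs with Tlr2, lay between 5682 and 9587, with GF above Bt and above Bl on both GeneChips and inside the range of Bt/Bl. Tlr8 lay between 122 and 989, with GF at 989 and 855 above the 6 others. It passed the filter through GF alone, so it was bound to be high there. Of the co-receptors and chaperones, 6 of 8 were tested. The brightest were Hsp90b1, a chaperone that folds Toll-like receptors (1469 to 4843, with GF above Bt and above Bt/Bl on both GeneChips), and Cnpy4 (2046 to 3321).

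Of the adaptors and kinases, 19 of 24 were tested, led by Tbk1, a kinase that activates interferon regulatory factors (12691 to 27274), and Tab2, which links Traf6 to the kinase Map3k7 (9194 to 19636). Irak1, the kinase recruited by MyD88, was chosen after its values were seen. Only the brightest of its 4 tested probe sets is given here. That probe set gave 12471 and 12206 in GF and between 4094 and 8053 on the 6 colonized GeneChips. Its log2 fold change was -1.19 in Bl against GF (standard error 0.31, adjusted p = 0.165). The inhibitors (6 of 9 tested) were led by Tnip1 (10372 to 17412) and Sigirr (3399 to 6271), a receptor that dampens Toll-like signaling.

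Of the partners of the Nod receptors, 5 of 8 were tested. The brightest was Erbin, a binding partner of Nod2, given here by the brightest of its 4 tested probe sets. That probe set gave 30789 and 40068 in GF and between 18899 and 27412 elsewhere. Its log2 fold change was -0.76 in Bl against GF (standard error 0.22, adjusted p = 0.206). Xiap, a ubiquitin ligase of Nod signaling, lay between 2680 and 5287. Among the other Nod-like receptors and inflammasome genes, 11 of 16 were tested. Pycard, the inflammasome adaptor, was bright and nearly level (93852 to 108122), and Nlrp6, an inflammasome sensor of the intestinal epithelium, lay between 26689 and 45518.

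Of the peptidoglycan recognition and lectin receptors, 3 of 7 were tested. Pglyrp1, a secreted peptidoglycan-binding protein, gave 180 and 669 in GF, 2507 and 1738 in Bt, 2908 and 588 in Bl, and 1197 and 1614 for Bt/Bl. Bt and Bt/Bl lay above GF on both GeneChips, with a log2 fold change of 2.59 in Bt (standard error 0.90, adjusted p = 0.344). Clec7a, a receptor of fungal glucans, lay between 50 and 1542.

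The cytosolic sensors of nucleic acids (7 of 8 tested) had 3 genes higher in Bt/Bl than in GF at an unadjusted p under 0.05 and 0 lower, beside 7.51% of all genes in either direction. The group was singled out after its values were seen. Ifih1, which encodes the double-stranded RNA sensor MDA5, gave 18072 and 17644 in GF, 19582 and 13216 in Bt, 11766 and 18231 in Bl, and 34092 and 30254 for Bt/Bl. Both Bt/Bl GeneChips were above all others, with a log2 fold change of 0.85 against GF (standard error 0.26, adjusted p = 0.404) and 1.13 against Bl (adjusted p = 0.120). Without GeneChip 9135, in the fit with a single Bl GeneChip that called 777 probe sets, the difference from Bl was 1.45 (adjusted p = 0.037). The others were Zbp1 and Ddx58, chosen after their values were seen, with 2933 and 3856 and with 3593 and 4368 in Bt/Bl against 794 and 1305 and 1542 and 1092 in GF. By its own methods the study reported Zbp1 as raised in every colonization state, and most in Bt/Bl. Sting1, the adaptor of cytosolic DNA sensing, lay between 2188 and 4839.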

How the data were processed

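Laser-captured cecal epithelium of 4 colonization states was measured on 8 Affymetrix mouse genome GeneChips. The values deposited were linear signal intensities. The authors' MAS5 software had scaled them to a common trimmed mean. Detection calls were not among the values used, and the study's own methods name dChip. The GlycoGeneChip was not used because its annotation lists none of the 10 genes. Genes were named through the platform annotation, in which 34958 of 45101 probe sets had 1 symbol, 932 several and 9211 none listed, with symbols updated through RefSeq.

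Signals were floored at the 25th percentile, put on the log2 scale and filtered at the median. The linear model of limma 3.58.1 (R 4.3.3) was fitted to all 8 GeneChips, which leaves 4 residual degrees of freedom. Its moderated variance followed the signal (trended eBayes), and p values were adjusted by Benjamini-Hochberg over all tested probe sets. The brightest tested probe set stood for a gene where genes were counted and where values of a pathway gene are given. The members, the gene lists and the tests were chosen with earlier results of these data known. Of each pathway list, genes past the threshold or the 2 brightest were named. The fit was checked on simulated data. Alternatives were other scalings, floors, filters, spread models and probe sets, a fold bound, and each GeneChip, or both GF GeneChips, left out. A state left with 1 GeneChip was assumed to vary like the others. The pathway genes were run through the same alternatives, which was decided after seeing the data, as was leaving out both GF GeneChips. The promoter windows were searched for 4 motifs.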

Additional observations from a re-analysis of the deposited data

How the results depend on the processing

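Over 8 members, 42 differences between states were recomputed under 17 to 20 alternative settings each, which gave 807 values. All 8 were followed against GF. Comparisons between colonized states were followed only for Tlr2, Tlr3, Tlr5, Cd14 and Myd88, and the non-additive term only for Tlr2, Cd14 and Myd88. In 780 values the direction and the side of the threshold were kept, in 26 the sign changed, and in 1 a call was gained. Since 0 members passed in the main fit, staying on that side of the threshold says little about robustness. In the comparison of Bt/Bl with Bl the number of members called was between 0 and 1 over the fits that left out a GeneChip, the 1 being Cd14 without Bl 9135, whose log2 fold change ranged from 0.92 to 1.46. The number of pathway genes called in the same fits ranged from 0 to 2 (Ifih1 and Tab2, without Bl 9135). With only the GeneChips of the states compared it was 2 in Bl against GF (Unc93b1 and Clec4n) and 2 in Bt against Bl (Clec4n and Dhx58), in fits that called 747 and 964 probe sets. Unc93b1 passed the filter through Bl alone, so it was bound to be high there. Without an intensity trend limma called 0 of all probe sets in each comparison with GF.

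Median scaling shifted the median of all probe sets by -0.22 in Bt, -0.37 in Bl and -0.05 for Bt/Bl against GF, and 75th percentile scaling by -0.19, -0.28 and -0.03. With median scaling the log2 fold change in Bl against GF turned to -0.34 for Cd14, -0.040 for Tlr2 and -0.20 for Tlr5, and that of Tollip in Bt to -0.14. With 75th percentile scaling it was -0.25 for Cd14 and -0.11 for Tlr5 in Bl, and -0.12 for Tollip in Bt. Quantile normalization gave -0.12 for Tlr5 in Bl against GF and -0.13 for Tlr2 in Bt/Bl against Bl. Without a floor Ly96 in Bt was 0.12, and with a floor at the median Ly96 in Bt/Bl was -0.11. With the mean of both tested probe sets Tollip was 0.77 in Bl and 0.038 for Bt/Bl. This mean includes the probe set that passed the filter through Bl alone.

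Leaving out single GeneChips gave log2 fold changes against GF that ranged from -0.27 to 0.28 for Cd14 in Bl, from -0.43 to 2.14 for Tlr4 in Bt, from -0.029 to 0.32 for Tlr5 in Bl and from -0.46 to 0.17 for Myd88 in Bt/Bl. For Ly96 it ranged from -1.74 to 1.48 in Bt, from -0.26 to 2.95 in Bl and from -0.89 to 2.33 in Bt/Bl. In Bt/Bl against Bl it ranged from -0.061 to 0.089 for Tlr2 and from -0.090 to 0.59 for Myd88. The cause of these changes was not tested. No paired analysis was possible because the numbers in the labels name GeneChips and no number is shared between states. Dim probe sets limit what could be seen for Tlr4, Ly96 and Nod1, and 1 pool in each state says nothing of the spread between mice.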
